A study of Homo sapiens with 4 samples.

Results

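The nuclear pore and the receptors that carry cargo through it were followed in RKO cells after CHD7 knockdown. The genes were taken by symbol from the deposited gene table: the nucleoporins named NUP and a number, TPR, the importin alpha adaptors KPNA, KPNB1, the importins IPO, the transportins TNPO, the exportins XPO, CSE1L, and the Ran-binding proteins named RANBP and a number. Letters after the number were allowed for NUP and RANBP, which took in NUP210L and RANBP3L. The rule gave 53 of the 15357 genes in the table. Of these, 50 had enough reads to be tested, among 11955 genes tested in all. KPNA7, NUP210L and RANBP3L had too few reads to test, with at most 5 in any library. RKO cells are an established line from a human colorectal cancer, and CHD7 encodes an ATP-dependent chromatin remodeller. Cells were infected with a lentivirus carrying either a control hairpin (the vector group, 2 libraries) or 1 hairpin against CHD7 (the shCHD7_2 group, 2 libraries), and stable expressers were used. The labels give no other difference between the groups, and polyadenylated transcripts were sequenced, so the values describe mRNA and not protein or transport itself. Since 1 hairpin was sequenced, an effect of losing CHD7 and an effect of that hairpin on other transcripts cannot be told apart in these libraries, and nothing in the labels says whether the replicates were separate infections.

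The nuclear pore complex is a ring-shaped channel through the nuclear envelope, built from scaffold nucleoporins of an outer and an inner ring, membrane-anchored nucleoporins, a central channel lined with phenylalanine-glycine repeats, cytoplasmic filaments and a nuclear basket. Importins bind cargo in the cytoplasm and release it in the nucleus on binding Ran-GTP, while exportins bind cargo together with Ran-GTP in the nucleus and release it outside when the GTP is hydrolysed. Dividing cancer cells express this machinery abundantly, because pores are assembled anew in every cell cycle and ribosomal subunits, mRNAs and nuclear proteins pass through them continuously.

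The libraries held between 15734679 and 16068650 counts each. CHD7 itself was present at 85.4 and 91.0 CPM (reads relative to library size, scaled between libraries by TMM) in the vector libraries and at 55.5 and 50.1 CPM in the shCHD7_2 libraries, a log2 fold change of -0.74 (SE 0.088, edgeR adjusted p = 4.15e-06). The targeted gene was therefore lower where the labels place the hairpin, with CHD7 mRNA still present. In bulk RNA, fewer cells with a transcript and less of it per cell cannot be told apart. Of 8 epithelial markers, 6 were in the table and 4 were tested, with KRT18 (68.5 to 84.5 CPM), KRT8, CDX2 and EPCAM present in every library and none past an adjusted p of 0.05, whereas CDH1 and KRT20 had no read in 3 libraries and a single read in the other. The 6 epithelial genes summed to 124.5 and 115.1 CPM in vector and 118.9 and 133.6 CPM in shCHD7_2. Fibroblast markers (2 of 8 in the table) summed to at most 0.439 CPM. Of 5 leukocyte markers, LYZ was at most 0.439 CPM and CD68, which is also a general lysosomal gene, ranged from 850.2 to 1024 CPM and was not past the threshold. None of 10 proliferation markers passed an adjusted p of 0.05 (median log2 fold change -0.09, with sums of 1499 and 1567 CPM in vector and 1535 and 1516 CPM in shCHD7_2). Their values ran from -0.23 for TOP2A to 0.22 for PCNA (edgeR adjusted p = 0.0567 and 0.0575), so the sums mix opposite directions. The groups did not overlap for 8 of the 10 (2 higher and 6 lower in shCHD7_2), or 80% beside 53.7% of all genes.

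Transport genes were expressed over a wide range. Levels of different genes are compared here as FPKM, which corrects for transcript length, and are means over the 4 libraries. RANBP1, which helps Ran hydrolyse its GTP, was highest at 185 FPKM, followed by CSE1L at 140.4, KPNB1 at 123.5 and KPNA2 at 121.4 FPKM. The nucleoporins lay within a narrower band, from 16.7 FPKM for NUP35 to 70.2 FPKM for NUP188. Among tested genes, RANBP17 was lowest at 1.66 FPKM. Together the 53 genes took 0.803% and 0.835% of all counts in the vector libraries and 0.844% and 0.799% in the shCHD7_2 libraries, so the groups overlapped in total output.

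**Figure D1:**
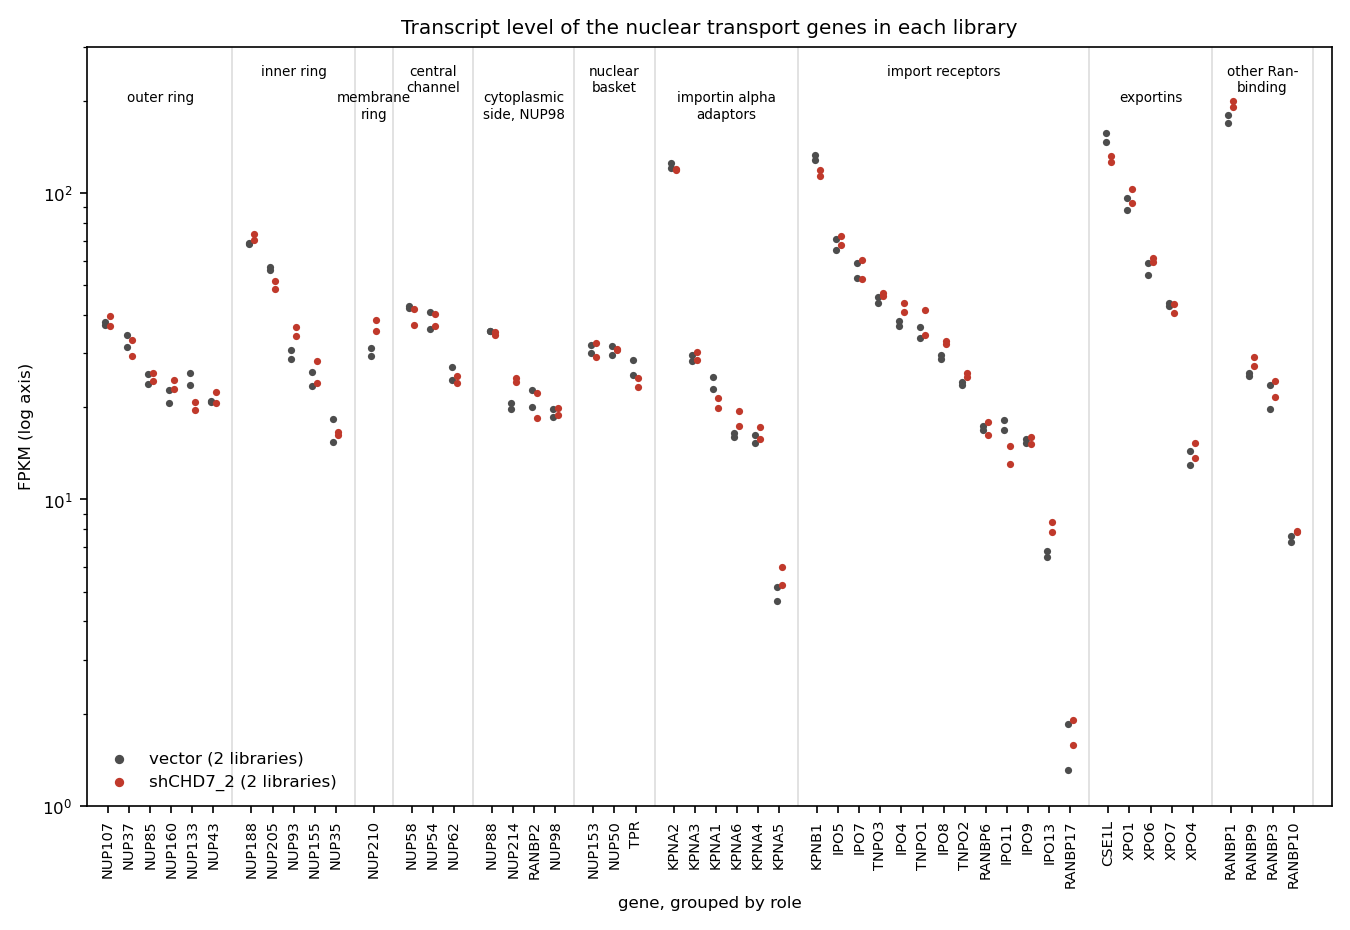
FPKM of each of the 50 tested transport genes (log axis) in the 2 vector libraries (grey) and the 2 shCHD7_2 libraries (red), grouped by role and ordered by level within each role. The nucleoporins lie between 16.7 and 70.2 FPKM on average, and the receptors spread from 1.66 FPKM (RANBP17) to 140.4 FPKM (CSE1L).

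After CHD7 knockdown, single transport genes showed small changes, at a share of 16% beside 11.5% over all genes. The median log2 fold change over the 50 genes was near 0 (-0.012). Of the 50 tested genes, 6 fell and 2 rose at an adjusted p under 0.05 (edgeR quasi-likelihood test with Benjamini-Hochberg adjustment over all 11955 genes). The 6 that fell were the importins IPO11 and KPNB1, the adaptor KPNA1, the exportin CSE1L, and the scaffold nucleoporins NUP133 and NUP205. The 2 that rose were the membrane nucleoporin NUP210 and the cytoplasmic filament nucleoporin NUP214. These changes ran from a ratio of 0.775 for IPO11 to 1.18 for NUP210, or from -0.37 to 0.24 on the log2 scale. In DESeq2, KPNA1, KPNB1, NUP205 and NUP214 did not pass (DESeq2 adjusted p = 0.0562, 0.0537, 0.0646 and 0.0574).

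The 8 genes made up 16% of those tested, beside 11.5% over all genes. The 6 lower genes made up 12%, beside 6.54% over all genes, and the 2 higher genes 4%, beside 4.94%. No transport gene met the study's criteria of an adjusted p under 0.05 with a change of at least 1.5-fold, which 2.88% of all genes met in edgeR. The count was also 0 in DESeq2, and 11 transport genes (22%) had an unadjusted p under 0.05, beside 25.4% of all genes. Transport genes had a median log2 fold change of -0.012, beside 0.00056 over all genes, with 22 genes above 0 and 28 below. The 22 tested nucleoporins (NUP genes, TPR and RANBP2) had 6 values above 0 and 16 below, with a median of -0.04. The 24 tested adaptors, import receptors and exportins had 12 above and 12 below, with a median of 0.0071. Genes are not replicates, and this split was not tested. The libraries of the groups did not overlap for 24 transport genes (48%), beside 53.7% of all genes, with 13 higher in shCHD7_2 (26.4% of all genes) and 11 lower (27.3% of all genes).

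The precision of the data bounds the remaining genes. The median SE of a log2 fold change was 0.08, and the 95% interval of all 50 genes stayed within a 1.5-fold change in either direction, against 9628 of the 11955 genes tested overall. The interval included 0 for 39 of the 50. The calls depended on single libraries: 2 transport genes passed without vector replicate 1 (6.73% of all genes), 0 without vector replicate 2 (5.04%), 7 without shCHD7_2 replicate 1 (14.1%) and 5 without shCHD7_2 replicate 2 (9.65%), where the lone library of a group was assumed to vary like the others. These 4 counts had the same order as the shares of all genes that passed in the same fits. The smallest two-sided p of an exact permutation test on 2 against 2 libraries is 0.333, and the p-values given here come from the fit across all genes and measure the spread between these libraries.

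**Figure D2:**
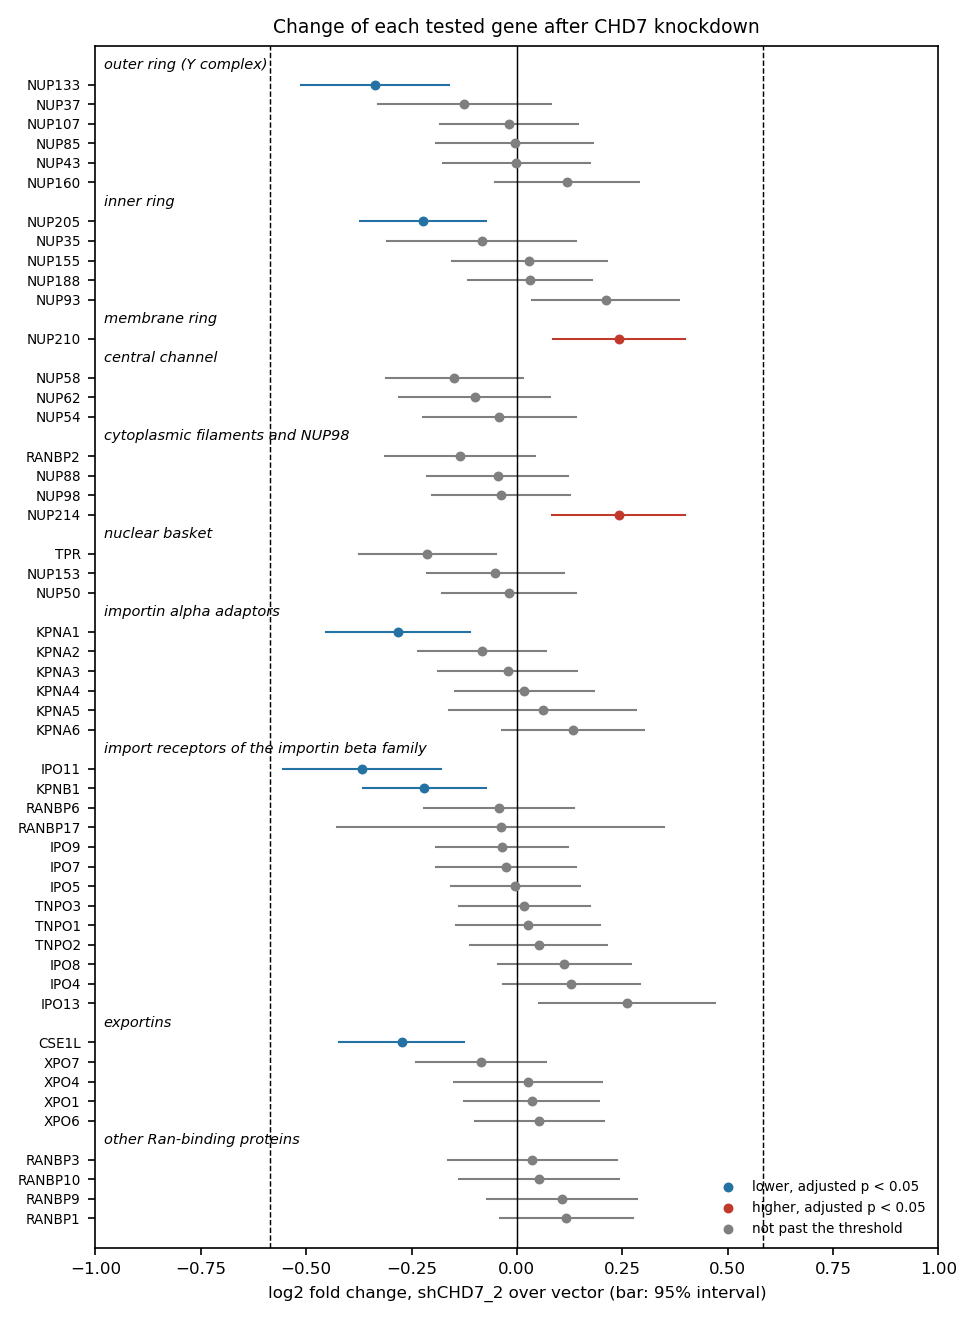
Log2 fold change (shCHD7_2 over vector) of the 50 tested transport genes by role, with bars for the 95% interval from edgeR and dashed lines at a 1.5-fold change. Blue points (6) are lower and red points (2) higher at an adjusted p under 0.05, and no bar crosses a dashed line.

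The 3′ UTRs of the transport genes were examined because short words had been related to lower expression in an earlier scan of these same libraries. The words were 7 bases long and were searched on the mRNA strand only, in the longest annotated 3′ UTR of each gene. Among the genes tested, 11691 had a 3′ UTR to search. The word AGCTATT was held by 13.4% of these genes and by 10 transport genes. A second word, GAAGCTA, was held by 8.60% of these genes and by 5 transport genes. The remaining word, GCTATTA, was held by 8.49% of these genes and by 13 transport genes, and it overlaps the word named first by 6 bases. At least 1 of the words was held by 22.4% of the genes. Among the 50 transport genes, 19 (38%) held at least 1, and NUP133, NUP58 and KPNA4 held all 3. The UTR searched need not be that of a gene's main transcript. The NUP58 site printed below ends at 25335667, whereas the gene ends at 25349800, so other NUP58 transcripts may lack it. Which transcripts the cells expressed was not tested. The sites below are those of the 3 genes that fell and held a word (NUP133, KPNA1 and IPO11), followed by 1 site each of NUP58 and KPNA4, which held all 3 words and did not pass the threshold. Each is written 5′ to 3′ on the mRNA strand with the word or overlapping words in capitals, on GRCh38 with GENCODE 29 transcripts.
NUP133 (chr1:229441755-229441781, minus strand, exon 26): ttatatgtagGAAGCTAatataaaata
NUP133 (chr1:229440309-229440336, minus strand, exon 26): ctaagttagtAGCTATTAcacccaaatg
KPNA1 (chr3:122425320-122425347, minus strand, exon 14): gcccctgacaAGCTATTAtacatctctg
IPO11 (chr5:62627759-62627785, plus strand, exon 6 of the transcript with the longest 3′ UTR): ttcagatgatGCTATTAaagaaatgtg
NUP58 (chr13:25335639-25335667, plus strand, exon 13): ttctgggttaGAAGCTATTcgaaaagtcc
KPNA4 (chr3:160497845-160497872, minus strand, exon 17): cttccattgtAGCTATTAaagtgaacta

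Of the 19 transport genes that held a word, 3 fell and 0 rose, with a median log2 fold change of -0.04. Of the 31 that held none, 3 fell and 2 rose, with a median of 0.03. CSE1L, KPNB1, NUP205, NUP210 and NUP214 held none of the words. Over all genes, 421 of the 2613 that held a word were lower and 79 higher (median -0.08), and 347 of the 9078 that held none were lower and 503 higher (median 0.02). The words were chosen on these libraries, so these counts are a description and not independent evidence. Word holders also had longer 3′ UTRs, with a median of 3088 bases against 1360 over all 11691 genes searched, and the part of UTR length in the result was not tested.

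The outer ring, or Y complex, is the scaffold that coats the pore on both faces of the envelope, and 1 of its 6 tested members fell. NUP133 (chromosome 1, 229440260 to 229508341, minus strand), a stem subunit of the Y complex, had 96.0 and 105.5 CPM in vector and 81.7 and 77.8 CPM in shCHD7_2. Both shCHD7_2 libraries were below both vector libraries. The log2 fold change was -0.34 (SE 0.085, edgeR adjusted p = 0.0102), and its UTR held the words at the sites printed above. The other 5 members did not pass, from -0.12 for NUP37 to 0.12 for NUP160. NUP107, the highest of the ring at 38.0 FPKM, was at -0.02 with a 95% interval from -0.18 to 0.14. The interval of NUP133 ran from -0.51 to -0.16, so the intervals overlapped, and a difference between these subunits was not tested.

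The inner ring holds the channel scaffold together, and 1 of its 5 members fell. NUP205 (chromosome 7, 135557919 to 135648757, plus strand), a large scaffold subunit, had 347.8 and 357.4 CPM in vector and 310.0 and 294.6 CPM in shCHD7_2. Again the groups did not overlap, and the change was -0.22 on the log2 scale (SE 0.072, edgeR adjusted p = 0.0482), just inside the threshold. NUP188, its close relative in the same ring and the most abundant nucleoporin here, was at 0.03 with an interval from -0.12 to 0.18. NUP93, which binds both NUP205 and NUP188, had 83.2 and 77.2 CPM in vector and 89.8 and 95.7 CPM in shCHD7_2, a log2 fold change of 0.21 that did not pass (SE 0.085, edgeR adjusted p = 0.116). The inner ring therefore held values on both sides of 0, with a median of 0.03.

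NUP210 (chromosome 3, 13316235 to 13420309, minus strand), a nucleoporin that spans the nuclear membrane, rose. It had 218.1 and 206.8 CPM in vector and 260.2 and 242.6 CPM in shCHD7_2, and the groups did not overlap. Its log2 fold change was 0.24 (SE 0.075, edgeR adjusted p = 0.038). Its paralogue NUP210L had 1 read in 1 vector library and none in the other libraries.

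The central channel trimer of NUP62, NUP54 and NUP58, whose repeats form the permeability barrier, had 0 of 3 members past the threshold in edgeR. All 3 values were below 0, at -0.15 for NUP58, -0.10 for NUP62 and -0.04 for NUP54, and all 3 intervals included 0. NUP58 was the highest of them at 41.0 FPKM and did not overlap between groups, with 178.4 and 181.2 CPM in vector and 171.0 and 153.4 CPM in shCHD7_2.

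On the cytoplasmic face, 1 of 4 tested genes rose. NUP214 (chromosome 9, 131125561 to 131234670, plus strand), which docks export complexes at the cytoplasmic filaments, had 148.6 and 156.0 CPM in vector and 181.7 and 178.4 CPM in shCHD7_2. The shCHD7_2 libraries were both above the vector libraries, by 0.24 on the log2 scale (SE 0.076, edgeR adjusted p = 0.0404). NUP88, with which NUP214 forms a subcomplex, was at -0.05 with an interval from -0.21 to 0.12, and it was the highest of these genes at 35.2 FPKM. RANBP2, the giant filament protein with SUMO ligase activity, had the lowest value (-0.13, interval from -0.31 to 0.04). RANBP2 shares most of its sequence with the RGPD genes, and its reads made up 55.5% to 59.2% of the CPM summed over RANBP2 and 7 such copies, so its level is uncertain. That sum was 396.2 and 442.9 CPM in vector and 419.8 and 370.1 CPM in shCHD7_2, so it overlapped between the groups. NUP98, which sits on both faces of the pore, was at -0.04.

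The nuclear basket had no member past the threshold, and its 3 values were -0.21 for TPR, -0.05 for NUP153 and -0.02 for NUP50. TPR, the coiled-coil protein that forms the basket filaments, was the first gene outside the threshold among the 50. It had 247.3 and 278.2 CPM in vector and 217.8 and 235.8 CPM in shCHD7_2 (SE 0.079, edgeR adjusted p = 0.0864). NUP153 was the highest of the basket at 30.9 FPKM.

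**Figure D3:**
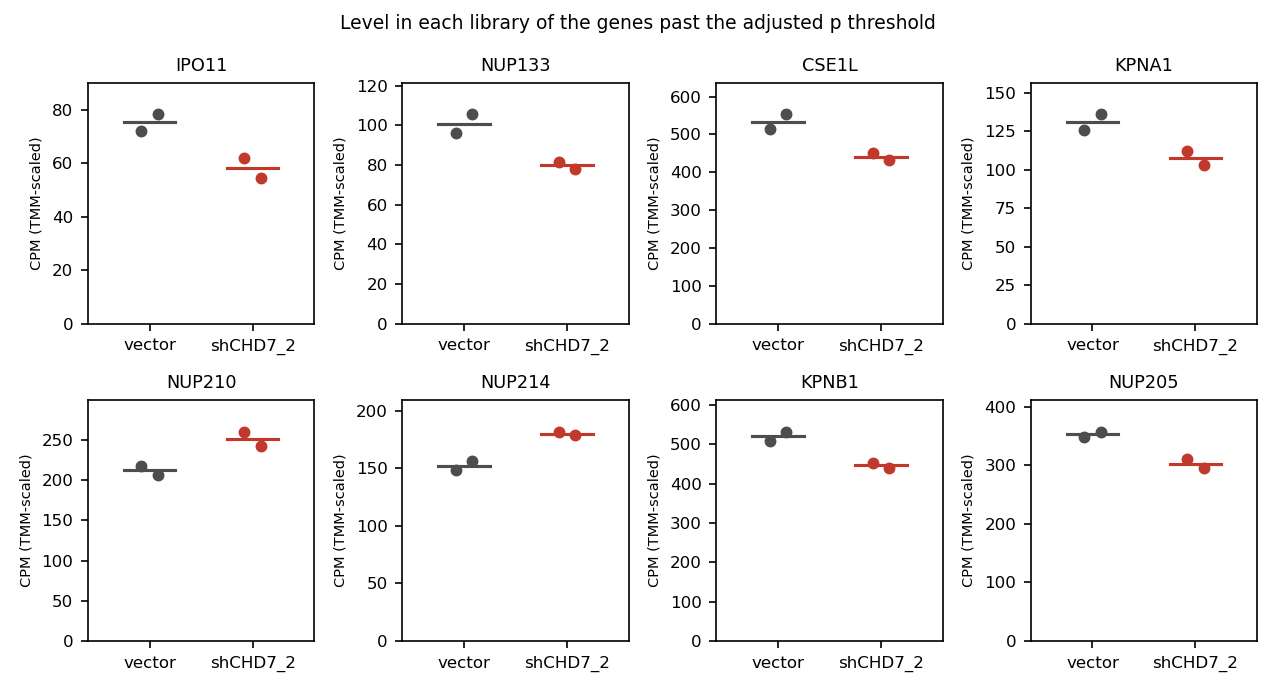
CPM in each library (points; horizontal bars are means of 2 libraries) of the 8 transport genes past an adjusted p of 0.05, in order of p, on axes that start at 0. The 2 groups do not overlap for any of the 8, which were selected by p on these same libraries, nor for 53.7% of all genes tested. NUP210 and NUP214 are the 2 that are higher in shCHD7_2.

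Importin alpha proteins are the adaptors that recognise classical nuclear localisation signals, and 1 of the 6 tested fell. KPNA1 (chromosome 3, 122421949 to 122514945, minus strand) had 125.5 and 135.8 CPM in vector and 112.2 and 102.8 CPM in shCHD7_2. The groups did not overlap, and the log2 fold change was -0.28 (SE 0.082, edgeR adjusted p = 0.0276), with the word site in its long 3′ UTR printed above. KPNA2, by far the most abundant adaptor at 121.4 FPKM, was at -0.08 (interval from -0.24 to 0.07), and its relative KPNA7 had at most 4 reads in a library. KPNA6 had the highest value of the adaptors, 0.13, with 117.6 and 121.4 CPM in vector and 137.6 and 124.5 CPM in shCHD7_2, and did not pass. KPNA3, KPNA4 and KPNA5 lay between -0.02 and 0.06, and KPNA4, KPNA5 and KPNA6 held words in their 3′ UTRs without passing.

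Among the 13 import receptors of the importin beta family, 2 fell and 0 rose at an adjusted p under 0.05. IPO11 (chromosome 5, 62403972 to 62628582, plus strand), which imports ubiquitin-conjugating enzymes, had 72.1 and 78.2 CPM in vector and 62.0 and 54.5 CPM in shCHD7_2. It showed the largest fall of the 50 genes, -0.37 (SE 0.091, edgeR adjusted p = 0.00907), and its libraries did not overlap between groups. KPNB1 (chromosome 17, 47649476 to 47685505, plus strand), importin beta itself, which carries cargo-bound importin alpha through the pore, had 508.6 and 531.8 CPM in vector and 453.5 and 440.1 CPM in shCHD7_2. Both shCHD7_2 libraries were lower, by -0.22 on the log2 scale (SE 0.071, edgeR adjusted p = 0.0459).

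The other import receptors did not pass. IPO13, which also carries cargo outwards, had the highest value of the 50 genes, 0.26, with 26.1 and 24.8 CPM in vector and 29.2 and 31.8 CPM in shCHD7_2. Its groups did not overlap, but it did not pass (SE 0.1, edgeR adjusted p = 0.098). That SE was above the median of 0.08 over the 50 genes and near the median of 0.096 over all genes tested. IPO5 and IPO7, which carry ribosomal proteins, were at -0.0037 and -0.03 and held a word each. RANBP6, a close paralogue of IPO5, was at -0.04. The transportins TNPO1, TNPO2 and TNPO3, receptors for RNA-binding proteins including splicing factors, lay between 0.02 and 0.05. RANBP17, the least abundant receptor, had an interval from -0.43 to 0.35, the widest of the 50.

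Of 5 exportins, 1 fell. CSE1L (chromosome 20, 49046246 to 49096960, plus strand), which returns importin alpha to the cytoplasm after import, had 514.7 and 552.8 CPM in vector and 450.1 and 432.9 CPM in shCHD7_2. The groups did not overlap, and the log2 fold change was -0.27 (SE 0.072, edgeR adjusted p = 0.0141). XPO1, the general exportin for leucine-rich export signals, was at 0.04 (interval from -0.13 to 0.20), with 370.1 and 405.3 CPM in vector and 421.3 and 373.3 CPM in shCHD7_2, which overlapped. XPO6, which exports actin, had the highest value of the exportins, 0.05, and XPO4 and XPO7 were at 0.03 and -0.09.

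The 4 other Ran-binding proteins tested were all above 0 and none passed. RANBP1 had 180.5 and 170.8 CPM in vector and 183.9 and 197.2 CPM in shCHD7_2, a log2 fold change of 0.12 (edgeR adjusted p = 0.359). RANBP9 and RANBP10, scaffold proteins of a ubiquitin ligase complex rather than transport factors, were at 0.11 and 0.05, and RANBP3, a cofactor of XPO1, was at 0.04.

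Transport genes outside the symbol rule were read beside these. The comparison lists held 9 other nucleoporins, 5 genes of the Ran cycle and 22 genes of mRNA, tRNA and snRNA export, and all 36 were tested. Of these, 5 fell and 1 rose at an adjusted p under 0.05 (16.7%, beside 11.5% over all genes), with a median log2 fold change of -0.09. Among the other nucleoporins 3 fell, and 0 of the Ran cycle genes passed in edgeR.

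SEH1L, a Y complex subunit like NUP133, had 126.8 and 131.6 CPM in vector and 91.0 and 87.4 CPM in shCHD7_2. At -0.53 (SE 0.08, edgeR adjusted p = 8.32e-05) this was a larger fall than that of any of the 50 genes, and its libraries did not overlap. The membrane nucleoporins POM121 and POM121C were at -0.29 and -0.34 (edgeR adjusted p = 0.0127 and 0.00526), but they are near-identical copies that the counting may not separate. NXF1, the main mRNA export receptor, and DDX39A, an mRNA export helicase, fell by 0.29 and 0.38 on the log2 scale (edgeR adjusted p = 0.0216 and 0.00531). THOC3, of the THO complex that couples transcription to export, rose by 0.26 (edgeR adjusted p = 0.0251). All 5 that fell held at least 1 of the words in the UTR searched, and THOC3 held none. For NXF1 that UTR ran over several exons of its transcript, with word sites in exons 11 and 18. Other NXF1 transcripts were not searched. Over the list, 11 genes held a word (5 lower, 0 higher, median -0.24) and 25 held none (0 lower, 1 higher, median -0.06). Of all genes that held a word, 16.1% were lower and 3.02% higher, and since the words were chosen on these libraries, these counts too are a description and not independent evidence.
The SEH1L sites, on GRCh38 and the plus strand in exon 9, are shown because this gene changed most of the 36.
SEH1L (chr18:12986312-12986338): aaaatttggtAGCTATTctaaggcttt
SEH1L (chr18:12986677-12986703): cttgatttgtGCTATTAtgttctgtta

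The spread between replicate libraries was shared by many of the transport genes. Of the 50, 37 were higher in vector replicate 2 than in vector replicate 1, and 36 were lower in shCHD7_2 replicate 2 than in shCHD7_2 replicate 1, with 31 genes doing both. Such counts were not made over all genes. Replicate differences in the 2 groups were negatively correlated over all genes too (-0.252, beside -0.389 over the transport genes). The median log2 ratio of replicate 2 to replicate 1 was 0.07 in vector and -0.07 in shCHD7_2, against 0.0064 and 0.00036 over all genes. These medians are larger in size than the median difference between the groups (-0.012). The measures are unlike, since a replicate ratio sets 1 library against 1 and the group difference sets 2 against 2. Of the 8 genes past the threshold, 7 shared this pattern and NUP210 did not.

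**Figure D4:**
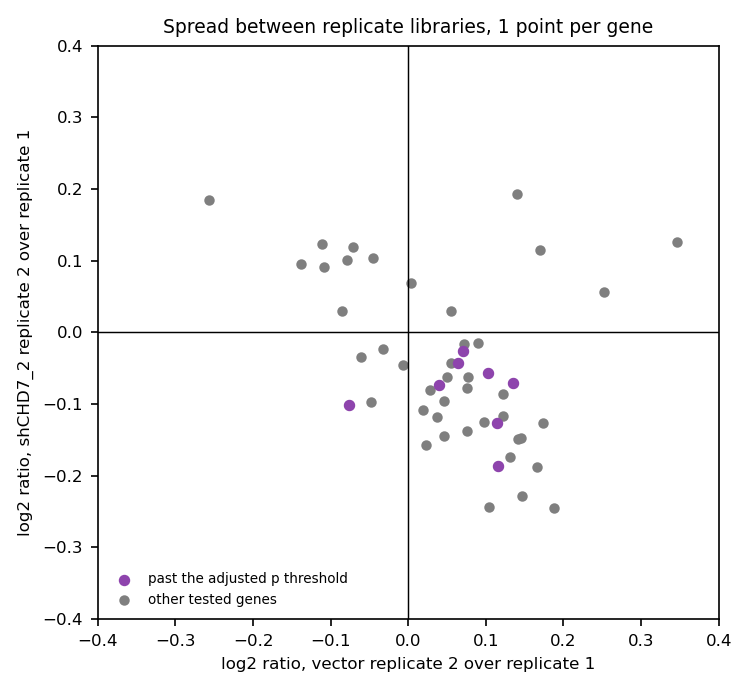
Log2 ratio of replicate 2 to replicate 1 in vector (horizontal axis) and in shCHD7_2 (vertical axis) for the 50 tested transport genes, 1 point per gene, with the 8 past an adjusted p of 0.05 in purple. The lower right part of the plot holds 31 of the 50 genes, which were higher in vector replicate 2 and lower in shCHD7_2 replicate 2 than in the other library of their group.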

How the data were processed

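Polyadenylated RNA of 4 RKO libraries (2 vector, 2 shCHD7_2) was sequenced, and groups and replicate numbers came from the labels. The authors deposited expected counts per gene, not normalised, and FPKM values, which the authors normalised for gene length and library depth. The submitters' processing notes name Bowtie2, RSEM, DESeq2 and hg38 without versions or roles, and the annotation is not given in the sources used here. Expected counts divide reads between similar genes, so paralogues are uncertain, and 9 of the 53 genes had counts that were not whole in at least 1 library.

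Expected counts were rounded. The edgeR 4.0.16 package in R 4.3.3 was used for filtering (filterByExpr), TMM scaling and the quasi-likelihood test on 11955 genes, with Benjamini-Hochberg adjustment. The biological coefficient of variation was 0.0579. Replicates differed beyond counting noise (chi-square per gene 3.94 in vector and 6.05 in shCHD7_2), so none was a duplicate. Alternatives used DESeq2 1.42.0, limma 3.58.1 on log2(FPKM + 1) or log2(FPKM + 0.1) with a mean FPKM of at least 1 or no filter, other scalings, other filters, a replicate block, and leaving out each library. Fits were tested on simulated data. Words were searched with Python 3.11.15 in GENCODE 29.

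All genes past the adjusted p were to be named, with the highest by FPKM and the highest and lowest by fold change in each role, and every comparison gene past the adjusted p. The genes, lists and words were chosen with earlier results of these data known. NUP62CL and NUP42 are not analysed here, and 1 gene matched by the symbol pattern is not reported here.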

Additional observations from a re-analysis of the deposited data

How the results depend on the processing

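With 2 libraries per group, 1 hairpin and changes under 1.5-fold, the calls rest on small errors. Counts given below as reported are those of the edgeR fit described above, not counts of the study. No transport gene was called at 1.5-fold in any of the 15 alternatives. None of the 8 named genes changed direction in any of them. The groups did not overlap for any of the 8, so refits of the same libraries could hardly reverse a sign, and this is no separate support. The named genes stayed past the adjusted p in 4 of 15 (NUP205, the fewest) to 11 of 15 (NUP133, the most). These 15 include 2 alternatives chosen after seeing the data, described below, in which all 8 passed and the share of all genes past the threshold was also larger. The number of transport genes past the adjusted p (8 of 50 as reported, beside 11.5% of all genes) was 7 with DESeq2 size factors in edgeR (11.7% of all genes passed in the same fit), 6 with library totals (12.4%), 4 in DESeq2 (6.69%), 3 in limma on FPKM with a pseudocount of 1 (10.4%) or 0.1 (10.3%), 0 in edgeR with no filter on low counts (1.31%) and 0 in limma with no filter (0.0521%), and ranged from 0 to 7 when a library was left out. The smaller counts without a filter came with more genes tested. Over the other transport genes (6 as reported) it was 1 with no filter in edgeR, 0 in limma with no filter, and 1 to 7 with a library left out. The genes called at 1.5-fold over the whole table (344 in the edgeR fit described above) were 221 in DESeq2, 141 with no filter, 172 and 257 in limma with a pseudocount of 1 and 0.1, and 8 in limma with no filter. In limma with no filter the transport genes' median moved to 0.040, and CHD7 was at -0.51 with an adjusted p of 0.127. CHD7 ranged from -0.82 to -0.67 with a library left out.

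Both groups carry replicate numbers 1 and 2, and the labels do not say whether same-numbered libraries form a pair. Replicate 2 minus replicate 1 had a correlation of -0.252 between the groups over all genes and -0.389 over the transport genes. Each group gives only 1 such difference, and whether same-numbered libraries shared a preparation was not tested. With a replicate block in edgeR, 0 transport genes and 2 of the other transport genes passed the adjusted p, as did 6.32% of all genes. Alternatives chosen after seeing the data were a crossed pairing, with 16 of 50 transport genes, 14 other transport genes and 31.4% of all genes past the adjusted p, and an offset for gene length, with 10 of 50 transport genes, which included all 8, and 20.2% of all genes. Both counts are at the background share.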

Other observations

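Ratios of FPKM between partners of the same complex or family were formed for the genes past the threshold, with pairs chosen after their values were seen and no test. NUP133 over NUP107, both of the Y complex, was 0.635 and 0.680 in vector and 0.521 and 0.532 in shCHD7_2. NUP205 over NUP188 was 0.819 and 0.845 in vector and 0.705 and 0.691 in shCHD7_2. NUP214 over NUP88 was 0.556 and 0.582 in vector and 0.725 and 0.690 in shCHD7_2. In each of these 3 pairs the groups did not overlap. CSE1L over KPNB1, which both fell, also did not overlap, with 1.14 and 1.17 in vector and 1.12 and 1.11 in shCHD7_2. KPNA1 over KPNA6 (1.43 and 1.52 in vector, 1.11 and 1.14 in shCHD7_2) did not overlap either. The same held for IPO11 over IPO13 (2.49 and 2.80 in vector, 1.91 and 1.54 in shCHD7_2). Every numerator was selected by p on these same libraries, and its own groups already did not overlap. The separation of the ratios is therefore no independent evidence of a shift between partners. How often ratios of other gene pairs overlap was not tested.

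Shares of a receptor family's summed FPKM give the same comparison within families. KPNA2 made up 55.7% to 58.1% of the importin alpha adaptors in the 4 libraries. KPNA1 made up 11.02% and 11.53% in vector and 10.1% and 9.60% in shCHD7_2, and KPNA6 made up 7.70% and 7.58% in vector and 9.09% and 8.41% in shCHD7_2. KPNB1 made up 27.2% and 27.0% of the import receptors in vector and 23.8% and 24.1% in shCHD7_2. Among the exportins analysed, CSE1L made up 41.9% and 42.9% in vector and 37.4% and 37.7% in shCHD7_2, and XPO1 made up 25.2% and 26.3% in vector and 29.2% and 27.7% in shCHD7_2. A share rises when another gene of the sum is lower, and the level of XPO1 itself overlapped between the groups (log2 fold change 0.04, edgeR adjusted p = 0.821).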
